A study of Paeonia suffruticosa with 12 samples.

Results

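Activated carbon alone (AC) was compared with activated carbon plus polyvinyl pyrrolidone (AC and PVP) in embryo seedlings of the peony variety “FengDan” (Paeonia suffruticosa). The comparison rests on the 6 of 12 libraries whose treatment label is AC or AC and PVP, 3 in each group, and the difference is always AC minus AC and PVP. The medium of the AC group held 0.9 g/L AC, and that of the AC and PVP group held 0.9 g/L AC with 2.5 g/L PVP, so AC was shared and PVP was what was added. The other 6 libraries were a control without either agent (CK, 3 libraries) and PVP alone at 2 g/L (PVP, 3 libraries), and they are used to estimate the spread between replicates and to place the levels. The labels give 30 days after rooting for all 12, and each sample pooled material of 10 seed embryos. The study describes the CK and PVP seedlings as germinated but unrooted, so these reference groups also differed from the AC groups in having no roots, which cannot be told apart from the absence of AC. The labels call the tissue a mixture of roots, stems and leaves, whereas the study's methods name leaves and roots. Each p-value measures the spread between such pools.

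Browning in tissue culture comes from phenolics that leak from cut or stressed tissue and are oxidised by polyphenol oxidases and peroxidases. AC is a porous adsorbent that takes up phenolics together with hormones and other organic compounds of the medium, and PVP is a polymer that binds phenolics. Phenolics are also the building blocks of lignin and of the aromatic part of suberin, which line the walls of root barrier cells, so genes of browning, phenylpropanoid synthesis and barrier formation were examined with those of photosynthesis, metal handling and seed reserves.

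Total estimated counts ranged from 19758835 to 20305215 over the AC libraries and from 11071691 to 19715848 over those of AC and PVP, of which replicate 3 was the lowest. Replicate 1 of AC and PVP stood apart in breadth, with a count in 56644 unigenes against 34896 to 42674 in the other 5 libraries. The correlation of log2(CPM + 1), where CPM is the count scaled to a library total of 1000000 reads, was 0.956 to 0.964 between AC libraries, 0.955 to 0.974 between AC and PVP libraries and 0.95 to 0.969 between libraries of different groups. The median absolute log2 difference of a unigene was 0.39 to 0.5 within AC, 0.3 to 0.434 within AC and PVP and 0.303 to 0.583 between groups. Libraries of different groups were therefore about as alike as replicates. Leaf and root regulators were both present, with the leaf polarity gene YAB5 at 10.9 to 42.6 CPM and the endodermis regulator MYB36 (chosen as a tissue marker) at 1.8 to 3.22 CPM over the 6 libraries.

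Of 130956 unigenes, 58247 had reads in 3 or more libraries and were tested, and 769 of these carried a gene name. Of the 58247, 4 were differentially expressed (DEGs, a log2 fold change beyond 1 in either direction at an adjusted p below 0.05, edgeR quasi-likelihood test with Benjamini-Hochberg adjustment over all unigenes), which is 0.00687% of those tested. TCTP and ERD15 were lower with AC alone, and the ferric reductase FRO4 and the metallothionein MT1 were higher (0.00343% of those tested in each direction). Before adjustment 3654 unigenes (6.27%) had p under 0.05, 1055 of them higher (1.81%) and 2599 lower (4.46%) with AC alone. Among the 15138 with a mean log2 CPM over 0, 570 were higher and 478 lower at this p. The excess of lower unigenes thus lay below that level. For 6812 unigenes the filter was met only with the help of AC, and for 9175 only with that of AC and PVP. Fewer than 3 libraries outside that group held reads, so the filter could favour a difference in such unigenes. Of the 769 with a name, 2 passed only by AC and 5 only by AC and PVP. DESeq2, fitted to the 6 libraries only, called 84 unigenes (0.144%), 11 higher (0.0189%) and 73 lower (0.125%), and the 4 DEGs were among them. Of the 73 lower calls, 10 had no count in any AC library and 24 had at most 3 counts over the 3 AC libraries together, and 67 did not overlap between the groups. Leaving out 1 library gave 2 to 20 DEGs, with 20 without AC replicate 3 and 2 without AC and PVP replicate 1 or replicate 3. All levels of single unigenes below are CPM after TMM scaling (edgeR's correction for library composition), and since the files give no unigene lengths, levels are compared between libraries and never between genes.

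**Figure D1:**
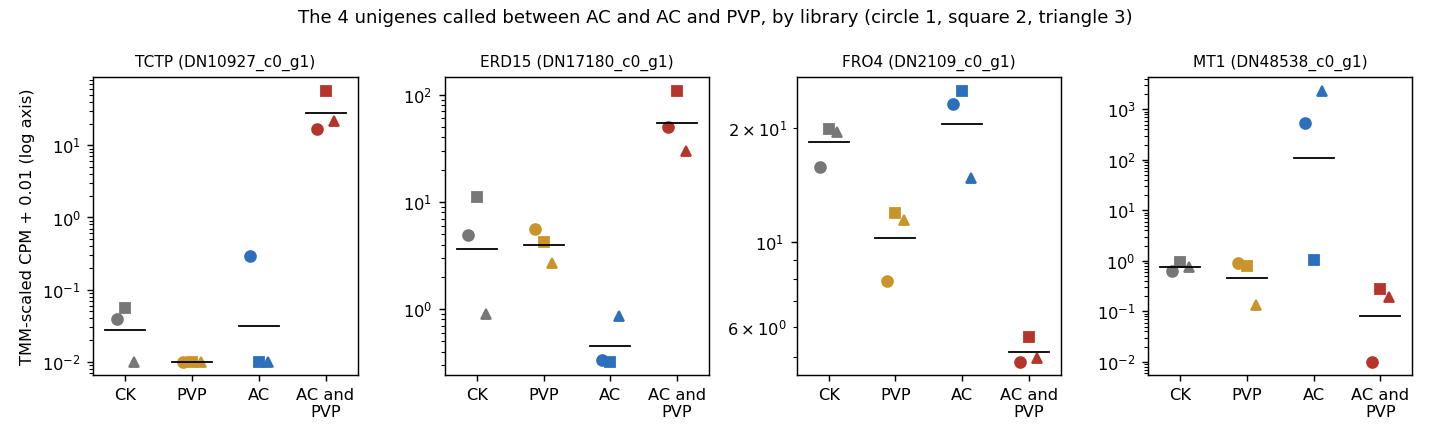
TMM-scaled CPM plus 0.01 (log axis) of the 4 DEGs in each of the 12 libraries, by group; the marker shape is the replicate number and the line is the geometric mean of the group. AC and PVP stands alone in TCTP and ERD15, FRO4 is lowest in AC and PVP, and MT1 is high in AC replicates 1 and 3 but not in replicate 2.

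TCTP encodes the translationally controlled tumour protein, a conserved regulator of growth. The TCTP unigene TRINITY_DN10927_c0_g1 stood at 0.285, 0 and 0 CPM in the AC libraries and at 16.9, 57 and 21.8 CPM in the AC and PVP libraries. It was also at 0 to 0.0449 CPM in CK and at 0 in every PVP library, so its reads came almost wholly from the 3 AC and PVP libraries. It fell by 8.10 ± 0.90 (SE) on the log2 scale with AC alone (edgeR adjusted p = 0.0023), and it was called whichever of the 6 libraries was left out. With robust estimation of the spread its adjusted p was 0.13. A second TCTP unigene, TRINITY_DN37979_c1_g1, had the same distribution at a lower level, with no count in AC, CK or PVP and with 0.57, 2.82 and 1.08 CPM in AC and PVP. It passed the filter on low counts only through the AC and PVP libraries, so its difference was fixed by that choice and adds no support to the first. Names were at hand only for unigenes the study had called. Any uncalled unigene of TCTP, or of the genes below, would go unseen here.

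ERD15, early responsive to dehydration 15, dampens abscisic acid responses in Arabidopsis. The unigene TRINITY_DN17180_c0_g1 stood at 0.326, 0.312 and 0.843 CPM in AC and at 49.7, 109 and 29.9 CPM in AC and PVP. The CK libraries had 4.88, 11 and 0.894 CPM and the PVP libraries 5.59, 4.2 and 2.69 CPM, so AC lay below and AC and PVP above all libraries without AC. It fell by 7.01 ± 0.83 (SE) on the log2 scale with AC alone (edgeR adjusted p = 0.01), and it was no longer called without AC replicate 1 (adjusted p = 0.098) or without AC replicate 2 (adjusted p = 0.087), with robust estimation (adjusted p = 0.52) or with edgeR's stricter filter on low counts (adjusted p = 0.062). Of 2 ERD15 unigenes 1 was called. The other, TRINITY_DN9697_c1_g1, stood at 378, 403 and 686 CPM in AC and at 612, 1550 and 690 CPM in AC and PVP (log2 fold change -0.96 ± 0.43 SE, edgeR adjusted p = 0.78), with overlap, and with both summed ERD15 had a log2 fold change of -1.05 ± 0.42 (SE, edgeR adjusted p = 0.77). Unigenes that share a name can be alleles, copies or pieces of one gene between which the estimated counts are split, which cannot be settled without sequences.

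FRO4 is named as a member of the ferric reductase family, membrane enzymes that reduce metal ions. TRINITY_DN2109_c0_g1 stood at 23.1, 25 and 14.7 CPM in AC and at 4.84, 5.64 and 4.96 CPM in AC and PVP, with no overlap. The CK libraries had 15.8 to 19.8 CPM and the PVP libraries 7.92 to 11.9 CPM, so AC overlapped with CK, and AC and PVP lay below all others. It rose by 2.02 ± 0.29 (SE) on the log2 scale with AC alone (edgeR adjusted p = 0.047). The call was kept in 1 of the 6 fits with a library left out, without AC replicate 3 (adjusted p = 0.0085), and the adjusted p was 0.12 to 0.45 in the other 5. It was also lost in 5 of 11 other alternatives (adjusted p = 0.057 to 0.085).

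FRO4 was the only DEG of 13 unigenes of metal reduction and transport, whose median log2 fold change was 0.16 against -0.02 over all tested. In this group 2 unigenes were higher and 1 lower at an unadjusted p under 0.05. VITH4, a vacuolar iron transporter homologue (TRINITY_DN12246_c0_g1), stood at 0.326, 0.104 and 0.0602 CPM in AC and at 0.855, 1.07 and 0.631 CPM in AC and PVP (log2 fold change -2.26 ± 0.63 SE, edgeR adjusted p = 0.72). The copper transporter COPT2 (TRINITY_DN24866_c0_g1) stood at 55.3, 344 and 101 CPM against 71.1, 64.8 and 83.8 CPM, where AC replicate 2 alone stood high and the groups overlapped.

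Metallothioneins are small cysteine-rich proteins that bind copper and zinc. Of 13 metallothionein unigenes 1 rose, none fell, and 4 were higher and none lower at an unadjusted p under 0.05, and all 4 were highest in AC replicates 1 and 3. MT1 (TRINITY_DN48538_c0_g1) stood at 531, 1.04 and 2340 CPM in the AC libraries and at 0, 0.268 and 0.18 CPM in the AC and PVP libraries. An MT2 unigene (TRINITY_DN26539_c0_g1) stood at 387, 0.521 and 1420 CPM against 0.38, 0.805 and 0.27 CPM, and MT2B (TRINITY_DN26986_c0_g1) at 60.3, 0.26 and 225 CPM against 0.0475, 0.671 and 0.811 CPM. AC replicates 1 and 3 were thus high, and AC replicate 2 lay far below them, above all AC and PVP libraries in MT1 and within their range in MT2 and MT2B. A further MT2 unigene (TRINITY_DN37482_c0_g1) had 1050, 68.9 and 4820 CPM in AC and 0.522, 34.5 and 12.4 CPM in AC and PVP, with no overlap.

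MT1 rose by 12.75 ± 1.88 (SE) on the log2 scale (edgeR adjusted p = 0.047). It was called in 2 of the 6 fits with a library left out, those without AC replicate 2 (adjusted p = 9.2e-06) and without AC replicate 3 (adjusted p = 0.016), and the adjusted p was 0.059 to 0.58 in the other 4. The call was also lost with robust estimation (adjusted p = 0.67), the stricter filter (0.24), RLE size factors (0.053) and symbols summed (0.06). For the MT2 and MT2B unigenes high in the same libraries, edgeR adjusted p was 0.18, 0.37 and 0.7, and DESeq2 called all 3 (adjusted p = 0.00011, 0.029 and 0.026). The most abundant unigene of the family, MT2 TRINITY_DN52038_c0_g1 (added to the named unigenes after its values were seen), stood at 15100, 22000 and 19900 CPM in AC and at 9720, 20400 and 20300 CPM in AC and PVP, with a log2 fold change of 0.18. Summed over the 13 unigenes, metallothioneins took 21200, 21900 and 24200 CPM of the library total in AC and 10400, 17000 and 20600 CPM in AC and PVP. OEP16, a protein of the outer chloroplast envelope (TRINITY_DN55879_c0_g1, also added after its values were seen), was also high in AC replicates 1 and 3, with 67.2, 0 and 52.4 CPM in AC and 0, 0 and 0.0902 CPM in AC and PVP.

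**Figure D2:**
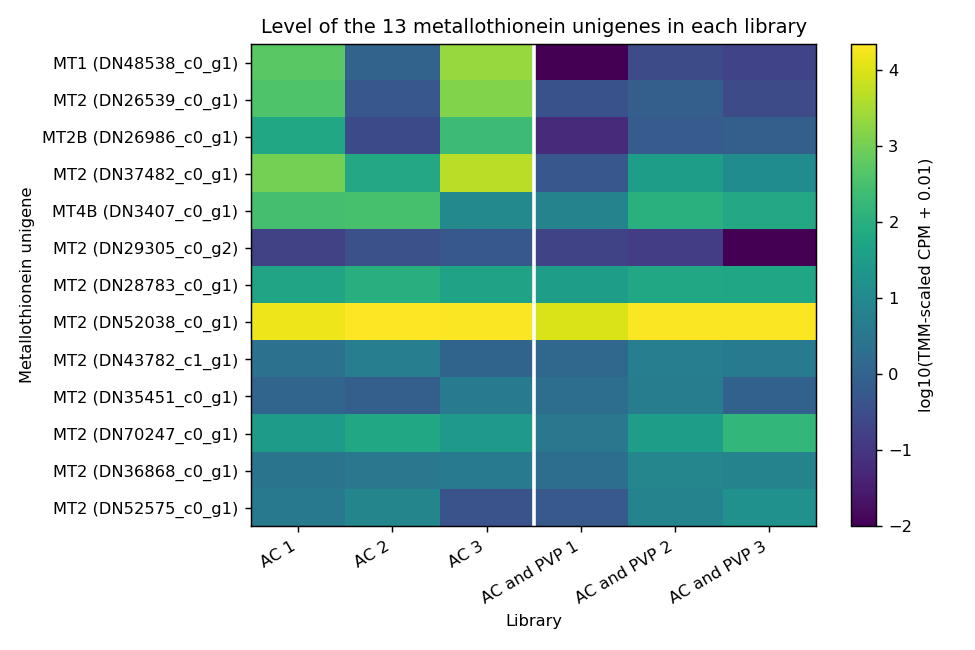
Level of the 13 metallothionein unigenes (rows, ordered by log2 fold change) in the 6 libraries (columns), as the colour of log10(TMM-scaled CPM + 0.01). The 4 top rows are bright in AC replicates 1 and 3, and the abundant MT2 unigene TRINITY_DN52038_c0_g1 is bright in all 6 libraries.

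The remaining groups held no DEG and are described by their levels. Gene names were at hand only for 769 unigenes that the study had called in at least 1 of its comparisons. Each of those comparisons included the AC or the AC and PVP libraries. Counts over these lists are therefore not independent evidence of a direction. The same holds for counts of the group with the lowest or highest mean. Of the 769, 61 were higher and 107 lower at an unadjusted p under 0.05, and 45 were higher and 94 lower in AC with no overlap between the 3 libraries of each group. Over all unigenes tested 3.71% were higher and 3.76% lower with no overlap (7.47% together), and 7.6% and 3.92% of those with a mean log2 CPM over 0. The median log2 fold change was -0.24 over the named unigenes, -0.02 over all tested and 0.09 over the 15138 with a mean log2 CPM over 0. The mean level in AC was the lowest of the 4 groups for 25.8% of all tested unigenes, for 16% of those with a mean log2 CPM over 0 and for 30.3% of the named ones, where means did not tie. The mean in PVP was the highest for 25.4% of all tested and 38.7% of the named. The mean in AC lay below that in AC and PVP for 51.3% and 61.6%, and for 41.3% of those with a mean log2 CPM over 0. AC and PVP had the highest mean in 12712 of 49034 tested and 179 of 765 named unigenes without ties. AC had it in 9181 and 163 of these.

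**Figure D3:**
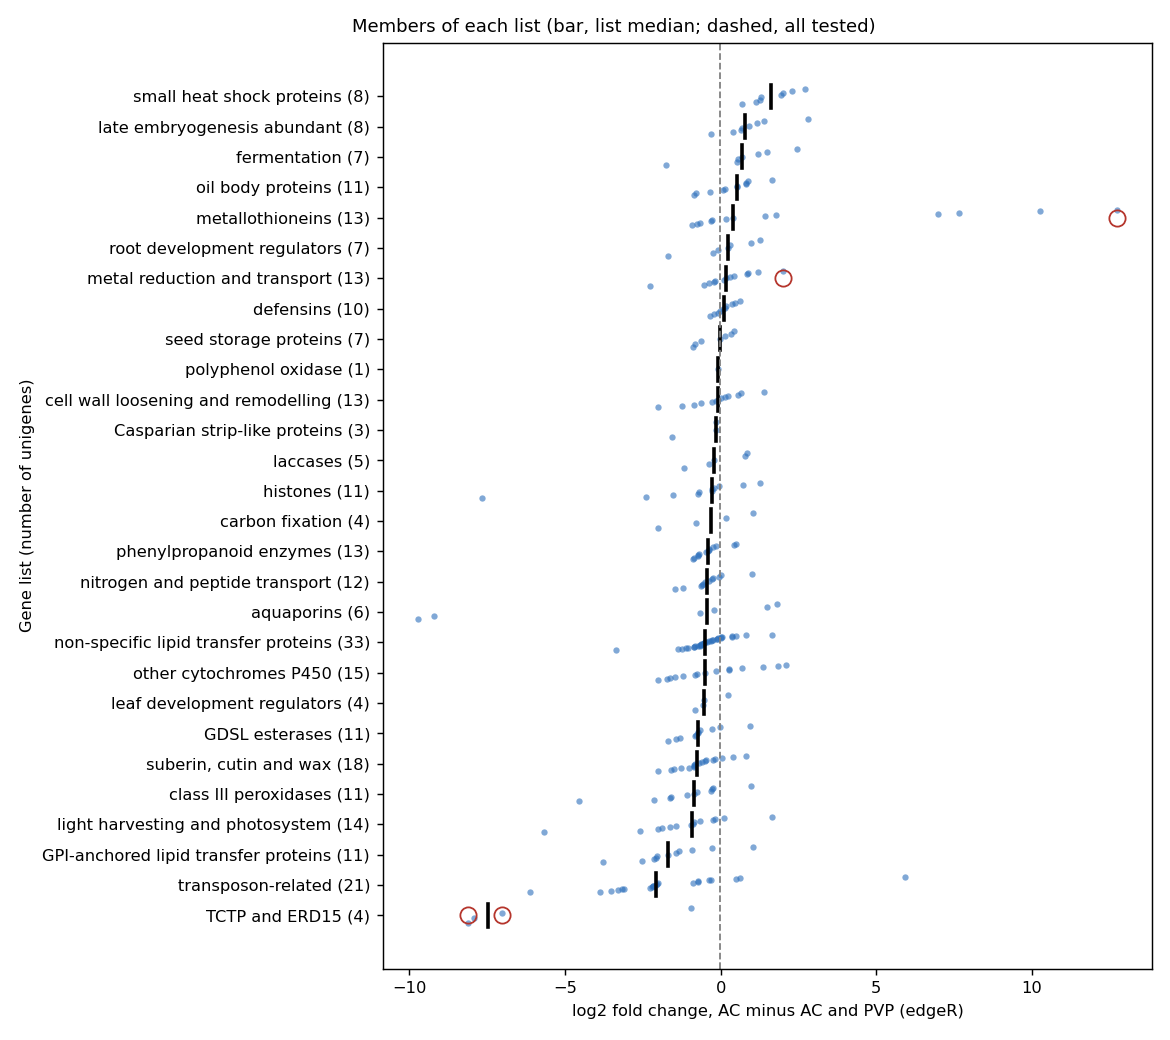
edgeR log2 fold change, AC minus AC and PVP, of each member of the 28 gene lists (points), with the list median (bar) and the DEGs (red circles); the dashed line is the median of all tested unigenes, -0.02. Small heat shock proteins lie at the top with all 8 members above 0, and GPI-anchored lipid transfer proteins and transposon-related unigenes lie below.

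Light harvesting and photosystem genes encode the antennae and reaction centres of the chloroplast. Of 14 unigenes 12 had a negative and 2 a positive log2 fold change with a median of -0.92, 4 were lower and 1 higher at an unadjusted p under 0.05, and 3 were lower and 1 higher with no overlap. CB21 (TRINITY_DN52998_c0_g1), a chlorophyll a-b binding protein, stood at 36, 48.1 and 31.1 CPM in AC and at 119, 213 and 132 CPM in AC and PVP (log2 fold change -2.01 ± 0.53 SE, edgeR adjusted p = 0.72, DESeq2 adjusted p = 0.00024). CB26 (TRINITY_DN57112_c1_g1), of the same family, stood at 27.8, 27.8 and 16.5 CPM against 54.4, 106 and 64.6 CPM and was also called by DESeq2 (adjusted p = 0.022) but not by edgeR (adjusted p = 0.76). For both, the 3 AC libraries lay below the 3 AC and PVP libraries.

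PSBA (TRINITY_DN646_c2_g1), the D1 protein of the photosystem II reaction centre, stood at 4.68, 2.03 and 7.77 CPM in AC and at 13.1, 22.8 and 17 CPM in AC and PVP (log2 fold change -1.87 ± 0.49 SE, edgeR adjusted p = 0.72). The group means in CK and PVP were 44.1 and 172 CPM for CB21, 27.9 and 92.8 CPM for CB26 and 2.27 and 36.1 CPM for PSBA. In all 3 the groups without PVP had lower means than the groups with PVP. Summed over the list, the level was 1270, 1290 and 1740 CPM of the library total in AC and 1970, 1730 and 2130 CPM in AC and PVP, so that AC replicate 3 and AC and PVP replicate 2 overlapped. In such mixed tissue, fewer cells of a type and less RNA per cell cannot be told apart.

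Regulators of leaf and root development, chosen as tissue markers, held no DEG, with median log2 fold changes of -0.54 (leaf) and 0.25 (root). Among 4 leaf unigenes 1 was lower at an unadjusted p under 0.05 and none was free of overlap, with AS1 (TRINITY_DN3372_c0_g1) at 4.73, 8.38 and 7.22 CPM in AC and at 9.97, 7.52 and 18.8 CPM in AC and PVP. YAB5 (TRINITY_DN3944_c0_g1) had a log2 fold change of -0.56 ± 0.46 (SE) and YAB1 (TRINITY_DN76361_c0_g1) of -0.52 ± 0.53 (SE). The summed leaf list reached 27.2, 38.2 and 33.5 CPM in AC and 46.1, 24.1 and 69.8 CPM in AC and PVP. Of 7 root or embryo regulators, WOX8 (TRINITY_DN10993_c0_g1) had no overlap, with 7.21, 8.38 and 5.6 CPM in AC and 4.56, 2.42 and 3.79 CPM in AC and PVP. PLET2 (TRINITY_DN4352_c1_g1), which maintains the root stem cell niche, stood at 0.489, 0.781 and 0.361 CPM against 0.0475, 0.403 and 0.27 CPM, and MYB93 (TRINITY_DN9537_c0_g2) at 0.122, 0.104 and 0 CPM against 0.332, 0.0671 and 0.451 CPM. Neither was free of overlap. The summed root list averaged 29.6 CPM of the library total in AC and 23.8 CPM in AC and PVP. In CK and PVP, described as unrooted, it averaged 49.9 and 14.9 CPM. PLET2 averaged 4.41 CPM in CK and 0.795 CPM in PVP, and MYB93 averaged 1.52 CPM in both. The root list thus did not follow the presence of roots across the groups. The part of tissue shares in the photosynthesis values was not tested.

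Carbon fixation unigenes lay in opposite directions. The chloroplast carbonic anhydrase CAHC had 2 unigenes, of which TRINITY_DN1323_c0_g1 stood at 22.7, 48.1 and 65.1 CPM in AC and at 120, 298 and 129 CPM in AC and PVP (log2 fold change -2.01 ± 0.73 SE, DESeq2 adjusted p = 0.036, edgeR adjusted p = 0.78). The more abundant TRINITY_DN2623_c1_g1 stood at 1110, 2780 and 908 CPM against 1060, 509 and 769 CPM (log2 fold change 1.04 ± 0.48 SE). Summed, CAHC had a log2 fold change of 0.81, so its direction depends on which unigene is read. RBS1 (TRINITY_DN622_c0_g2), a small subunit of Rubisco, stood at 0.285, 0.781 and 5.78 CPM against 0.807, 0 and 11.2 CPM, high in replicate 3 of both groups.

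Histones package DNA, and the core forms are made mainly while cells replicate. Of 11 histone unigenes 3 were lower and 1 higher with no overlap, with a median log2 fold change of -0.29, and 1 of the 3 had passed the filter only through AC and PVP. The linker histone H1 (TRINITY_DN2803_c0_g1) stood at 12.2, 12.7 and 13.4 CPM in AC and at 30.1, 52.5 and 27.7 CPM in AC and PVP (log2 fold change -1.53 ± 0.41 SE, edgeR adjusted p = 0.72, DESeq2 adjusted p = 0.017). An H41 unigene (TRINITY_DN14029_c1_g1) had no count in AC, CK or PVP and 1.42, 0.403 and 1.89 CPM in AC and PVP, and is the one that passed the filter through that group alone. H2AXA (TRINITY_DN10362_c0_g1), the variant H2A of DNA repair, lay the other way, with 32.8, 46.1 and 45.1 CPM in AC and 20.1, 14.2 and 17.6 CPM in AC and PVP (log2 fold change 1.26 ± 0.39 SE, edgeR adjusted p = 0.77). The CK libraries had 56.4, 14.7 and 51.1 CPM, of which replicate 2 lay within the range of AC and PVP, and the PVP mean was 42.7 CPM. All 10 histone unigenes whose group means did not tie had their highest mean in PVP.

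Non-specific lipid transfer proteins are small secreted carriers of lipids that serve cuticle and wall assembly. Of 33 unigenes 25 had a negative log2 fold change with a median of -0.5, and 3 were lower and 1 higher at an unadjusted p under 0.05. NLTP TRINITY_DN55495_c0_g1 stood at 18, 42.5 and 34.5 CPM in AC and at 201, 255 and 528 CPM in AC and PVP, with 8.63 CPM in CK and 54.2 CPM in PVP on average. Its log2 fold change of -3.37 ± 0.62 (SE) had an edgeR adjusted p of 0.37 and a DESeq2 adjusted p of 1.4e-07. NLTP TRINITY_DN6400_c0_g1 stood at 363, 160 and 436 CPM against 654, 1170 and 665 CPM, again without overlap, and NLTP1 TRINITY_DN24565_c0_g1 at 2.4, 0.625 and 1.93 CPM against 0.475, 0.403 and 0.721 CPM. AC and PVP had the highest mean of the 4 groups in 21 of the 33.

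GPI-anchored lipid transfer proteins are held at the cell surface and act in the deposition of suberin and cuticle. Of 11 unigenes 10 had a negative log2 fold change, 5 were lower and 1 higher at an unadjusted p under 0.05, and 4 were lower with no overlap, with a median of -1.69. LTG15 (TRINITY_DN10081_c0_g1) stood at 4.48, 5.83 and 6.92 CPM in AC and at 15.1, 32.5 and 25.3 CPM in AC and PVP (log2 fold change -2.08 ± 0.49 SE, edgeR adjusted p = 0.7, DESeq2 adjusted p = 0.00088). LTPG5 (TRINITY_DN26209_c0_g1) stood at 1.51, 2.4 and 1.93 CPM against 7.17, 10.7 and 5.86 CPM (DESeq2 adjusted p = 0.0045), and LTG16 (TRINITY_DN5866_c0_g1) at 1.06, 1.46 and 1.75 CPM against 2.94, 4.23 and 4.24 CPM. In all 3 every AC library lay below every AC and PVP library. Means in CK and PVP were higher still for these 3, at 28.7 and 213 CPM for LTG15, 12.4 and 56.3 CPM for LTPG5 and 9.23 and 43.6 CPM for LTG16.

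Class III peroxidases are secreted enzymes that couple phenolics in lignin and suberin and take part in browning. Of 11 unigenes 10 had a negative log2 fold change with a median of -0.86, 4 were lower and none higher at an unadjusted p under 0.05, and AC had the lowest mean of the 4 groups in 10. PER11 (TRINITY_DN112784_c0_g1) stood at 0.815, 0.885 and 0.903 CPM in AC and at 2.71, 5.24 and 3.61 CPM in AC and PVP, with means of 7.56 CPM in CK and 37.6 CPM in PVP. Its log2 fold change was -2.14 ± 0.62 (SE, edgeR adjusted p = 0.73, DESeq2 adjusted p = 0.014). PER64 (TRINITY_DN9029_c0_g1) stood at 9.21, 12.7 and 8.25 CPM against 15, 36 and 13.2 CPM, PER20 (TRINITY_DN12785_c0_g1) at 0.774, 0.417 and 0.722 CPM against 1.38, 1.88 and 2.61 CPM, and PER49 (TRINITY_DN5714_c0_g1) at 0.0407, 0 and 0 CPM against 0.285, 0.537 and 0.811 CPM. These 4 had no overlap. PER12 (TRINITY_DN649_c0_g1) stood at 70.2, 33.5 and 46.7 CPM against 66.8, 127 and 79.5 CPM and overlapped in 1 library of each group.

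Suberin, cutin and wax genes make and export the lipid polymers of root and shoot barriers. Of 18 unigenes 15 had a negative log2 fold change with a median of -0.75, 5 were lower and none higher at an unadjusted p under 0.05, and 7 were lower with no overlap. C86A1 (TRINITY_DN15387_c0_g1) and C86B1 (TRINITY_DN22332_c0_g1), fatty acid hydroxylases of suberin synthesis, stood at 0.489, 0.26 and 0.301 CPM against 0.855, 1.54 and 0.631 CPM and at 0.407, 0.573 and 0.361 CPM against 1.14, 1.61 and 1.35 CPM. KCS1 (TRINITY_DN10080_c0_g1), which elongates fatty acids, stood at 2, 0.729 and 0.602 CPM against 1.38, 4.56 and 2.25 CPM and overlapped through AC replicate 1. The log2 fold changes were -1.50 ± 0.50, -1.59 ± 0.56 and -1.26 ± 0.52 (SE), each with an edgeR adjusted p of 0.78. AC had the lowest mean of the 4 groups in 12 of the 18 and PVP the highest in 13.

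GDSL esterases, some of which join or cut cutin and suberin units, had 10 negative log2 fold changes among 11 with a median of -0.73. GDL38 (TRINITY_DN3379_c0_g1) stood at 1.06, 0.989 and 0.843 CPM in AC and at 2.56, 3.22 and 3.7 CPM in AC and PVP, GDL31 (TRINITY_DN775_c0_g1) at 1.55, 0.989 and 1.08 CPM against 1.9, 3.83 and 3.34 CPM, and GDL29 (TRINITY_DN39582_c0_g1) at 2, 1.98 and 1.14 CPM against 4.7, 2.08 and 7.21 CPM. None of the 3 overlapped, and their edgeR adjusted p was 0.76, 0.78 and 0.78. Of 3 Casparian strip-like membrane proteins, CSPL5 (TRINITY_DN2359_c0_g1) stood at 1.26, 0.521 and 0.602 CPM against 1.42, 2.48 and 3.34 CPM with no overlap, while CSPLA (TRINITY_DN113520_c0_g1) and CSPLB (TRINITY_DN9283_c0_g1) had log2 fold changes of -0.15 ± 0.71 and -0.16 ± 0.68 (SE). AC and PVP replicate 2 was the lowest library for both, and the groups overlapped.

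**Figure D4:**
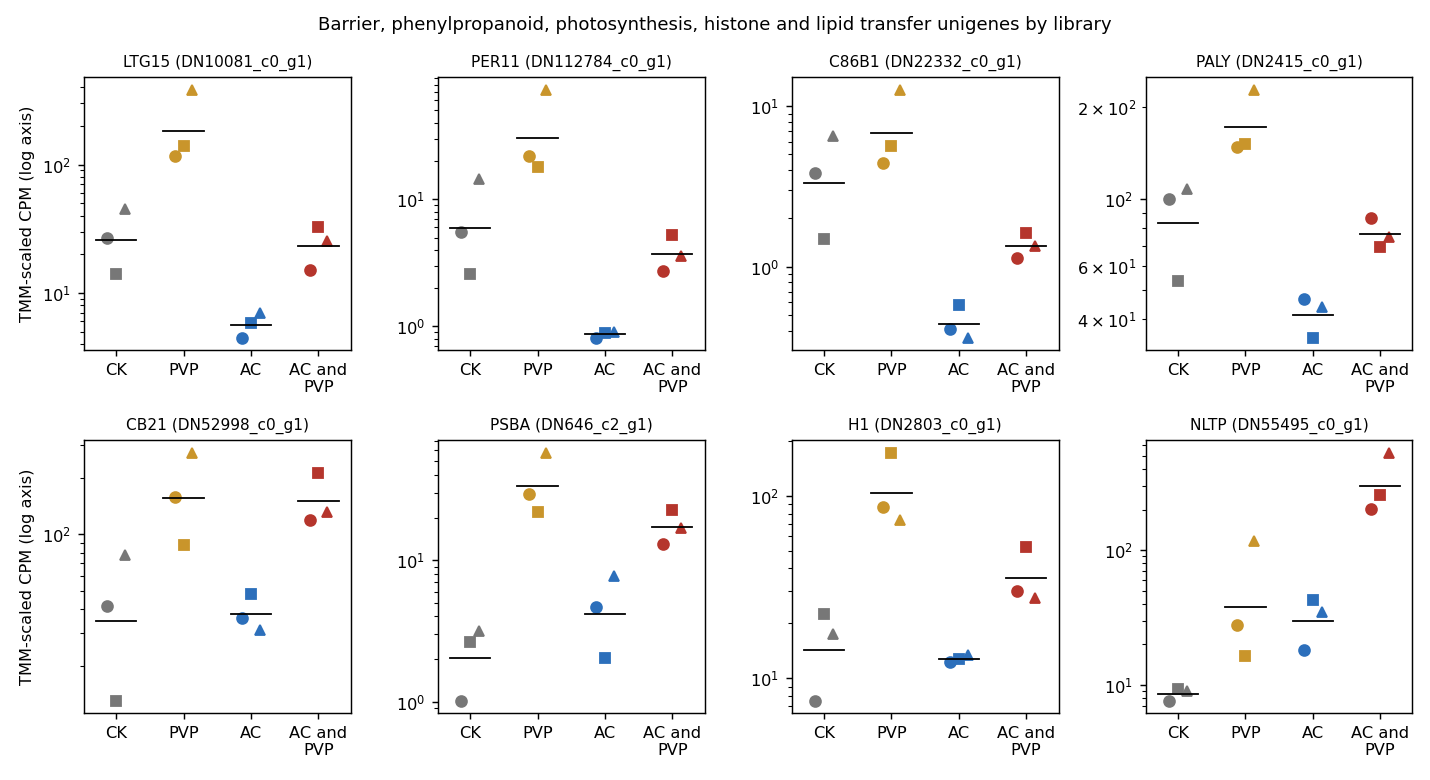
TMM-scaled CPM (log axis) of 8 unigenes in the 12 libraries, by group, with markers for replicates 1 (circle), 2 (square) and 3 (triangle) and lines at geometric means. In all 8 panels the 3 AC libraries lie below the 3 AC and PVP libraries; AC is the lowest group in the 4 upper panels, and PVP is the highest group except in NLTP.

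Phenylpropanoid enzymes, which turn phenylalanine into lignin precursors, had log2 fold changes between -0.88 and 0.48. Of 13 unigenes 11 had a negative log2 fold change with a median of -0.39, 1 was lower at an unadjusted p under 0.05, and 2 were lower and 1 higher with no overlap. The phenylalanine ammonia-lyase PALY (TRINITY_DN2415_c0_g1), the entry enzyme, stood at 46.5, 34.8 and 44 CPM in AC and at 86.5, 69.1 and 74.5 CPM in AC and PVP (log2 fold change -0.88 ± 0.31 SE, edgeR adjusted p = 0.78). A second PALY (TRINITY_DN1178_c0_g1) stood at 10.1, 12.3 and 18.2 CPM against 17, 27.9 and 20.5 CPM, and HST (TRINITY_DN4411_c0_g1), the hydroxycinnamoyltransferase, at 14.6, 10.9 and 17.5 CPM against 18.8, 34.2 and 17.6 CPM. AC replicate 3 was the highest AC library in both, above the lowest AC and PVP library in PALY and just below it in HST. AC had the lowest mean of the 4 groups in 9 of the 13 and PVP the highest in 10.

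Other phenolic oxidases overlapped between the groups. The polyphenol oxidase PPO (TRINITY_DN5115_c0_g1) stood at 21.4, 15.5 and 26.1 CPM in AC and at 20.7, 30.3 and 15.2 CPM in AC and PVP, with means of 61.2 CPM in CK and 76.8 CPM in PVP. Its log2 fold change was -0.07 ± 0.45 (SE, edgeR adjusted p = 1.0). Of 5 laccases, copper oxidases of the wall, none had an unadjusted p under 0.05 or was free of overlap. LAC3 (TRINITY_DN4988_c0_g1) stood at 3.83, 0.417 and 2.17 CPM against 3.32, 6.78 and 4.42 CPM, LAC4 (TRINITY_DN9066_c0_g2) at 0.815, 0.937 and 0.482 CPM against 0.522, 0.336 and 0.361 CPM, and LAC1 (TRINITY_DN10795_c0_g1) at 0.692, 0.521 and 0.181 CPM against 0.285, 0.336 and 0.18 CPM.

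Among 15 other cytochromes P450, oxidising enzymes of secondary metabolism, 5 were lower and 1 higher at an unadjusted p under 0.05, with a median log2 fold change of -0.51. The C7124 unigenes TRINITY_DN6_c0_g3 and TRINITY_DN6_c0_g2 stood at 154, 103 and 75.6 CPM in AC against 478, 169 and 693 CPM in AC and PVP and at 98.1, 37.4 and 67.5 CPM against 236, 138 and 260 CPM. In both, AC and PVP replicate 2 was the lowest of its group and still lay above AC. DESeq2 called both (adjusted p = 0.039 and 0.041) and edgeR neither (adjusted p = 0.76 and 0.78). C7113 (TRINITY_DN6_c0_g4), which carries the same Trinity cluster number as those unigenes and could share reads with them, stood the other way at 300.0, 610 and 88.6 CPM in AC and 53, 85.5 and 96.4 CPM in AC and PVP. It overlapped through AC replicate 3.

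Aquaporins are water channels, the TIP forms of the vacuole membrane. Of 6 unigenes 2 were lower and 1 higher with no overlap, with a median log2 fold change of -0.44. TIP11 TRINITY_DN62305_c0_g1 stood at 0.0407, 0.0521 and 0.12 CPM in AC and at 0.19, 80.6 and 50.2 CPM in AC and PVP, where replicate 1 was near the AC level. DESeq2 called it (adjusted p = 1.7e-08) and edgeR did not (adjusted p = 0.76). A second TIP11, TRINITY_DN17644_c0_g1, had no count in AC and 6.12, 9.13 and 0 CPM in AC and PVP, so the groups overlapped at 0. Summed, TIP11 had 0.0407 to 0.12 CPM in AC, 6.31, 89.7 and 50.2 CPM in AC and PVP, 0.194 to 63.7 CPM in CK and 13.1 to 137 CPM in PVP (log2 fold change -9.37 ± 1.66 SE, edgeR adjusted p = 0.19). TIP41 (TRINITY_DN2740_c0_g1) lay the other way, with 64.6, 43.9 and 71.1 CPM in AC and 25.3, 23 and 16.3 CPM in AC and PVP (DESeq2 adjusted p = 0.028, edgeR adjusted p = 0.78).

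Among 13 cell wall remodelling unigenes the median log2 fold change was -0.09. The pectin acetylesterase PAE9 (TRINITY_DN25873_c0_g1) stood at 0.163, 0.208 and 0.12 CPM against 0.95, 0.738 and 0.27 CPM, the endoglucanase GUN12 (TRINITY_DN8534_c0_g1) at 1.91, 1.3 and 1.44 CPM against 0.617, 0.604 and 0.541 CPM, and the xyloglucan enzyme XTH33 (TRINITY_DN5370_c0_g1) at 6.23, 3.18 and 3.97 CPM against 8.36, 7.18 and 8.47 CPM. None of the 3 overlapped, GUN12 being the one higher in AC. Of 12 unigenes listed under nitrogen and peptide transport, 10 had a negative log2 fold change with a median of -0.44. ASPGB (TRINITY_DN4648_c0_g4), an asparaginase, stood at 10.3, 9.01 and 10.1 CPM in AC and at 52.4, 16.6 and 12.3 CPM in AC and PVP, with 161 CPM on average in CK. The transporter PTR19 (TRINITY_DN5508_c0_g1) stood at 0.285, 0.417 and 0.963 CPM against 1.14, 1.21 and 1.44 CPM, and GAT21 (TRINITY_DN12001_c0_g1), whose symbol is that of a GATA transcription factor rather than a transporter, at 2.04, 3.91 and 1.87 CPM against 4.13, 3.15 and 4.6 CPM.

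Alcohol dehydrogenase makes ethanol from the acetaldehyde that pyruvate decarboxylase releases, and plants use it when oxygen is short. Of 7 fermentation unigenes none was a DEG, 6 had a positive log2 fold change with a median of 0.68, 3 were higher and none lower at an unadjusted p under 0.05, and 3 were higher and 1 lower with no overlap. ADH1 TRINITY_DN53786_c1_g1 stood at 14.1, 51 and 20.2 CPM in AC and at 8.4, 3.96 and 3.25 CPM in AC and PVP (log2 fold change 2.44 ± 0.66 SE, edgeR adjusted p = 0.72, DESeq2 adjusted p = 0.026). ADH1 TRINITY_DN27792_c0_g1 stood at 5.54, 5.78 and 6.74 CPM against 2.75, 1.75 and 1.89 CPM, and ADH TRINITY_DN22417_c0_g1 at 126, 172 and 270.0 CPM against 87.5, 106 and 51.3 CPM. In all 3 every AC library lay above every AC and PVP library. AC had the highest mean of the 4 groups in 6 of the 7, and the summed list took 275, 387 and 487 CPM of the library total in AC and 258, 199 and 151 CPM in AC and PVP.

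Small heat shock proteins are chaperones of stressed and of maturing embryos. All 8 unigenes had a positive log2 fold change, with a median of 1.61, and their highest mean of the 4 groups in AC. Of the 8, 4 were higher at an unadjusted p under 0.05 and 1 had no overlap. HSP11 (TRINITY_DN6787_c0_g1) stood at 2.08, 1.56 and 0.602 CPM in AC and at 0.19, 0.336 and 0.361 CPM in AC and PVP (log2 fold change 2.31 ± 0.63 SE, edgeR adjusted p = 0.72). HSP41 (TRINITY_DN1728_c0_g1) stood at 22.6, 247 and 20.6 CPM against 5.41, 11.5 and 27.3 CPM, and HS181 (TRINITY_DN708_c0_g1) at 108, 144 and 52.9 CPM against 54.1, 30.6 and 40.2 CPM. AC replicate 2 was the highest of the 6 libraries in both, AC replicate 3 overlapped with AC and PVP in both, and AC replicate 1 also did in HSP41, whose log2 fold change without AC replicate 2 was 0.56. Summed, the list took 1240, 3350 and 244 CPM of the library total in AC and 250, 712 and 539 CPM in AC and PVP.

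Transcripts of seed reserves were also highest in AC replicate 2 among the 6 libraries, though higher still in CK replicate 2. Seed storage proteins (7 unigenes) summed to 10800, 16800 and 2430 CPM in AC and to 1970, 14000 and 4950 CPM in AC and PVP. Oil body proteins (11 unigenes) summed to 3740, 12300 and 977 CPM against 734, 6420 and 2430 CPM, and late embryogenesis abundant proteins (8 unigenes) to 4240, 14000 and 425 CPM against 256, 4740 and 1540 CPM. Of the 6 libraries AC replicate 2 was the highest and AC and PVP replicate 1 the lowest in each of these lists, with a wider range within a group than between the group means, and no member had an unadjusted p under 0.05. The list medians of the log2 fold change were -0.02, 0.52 and 0.8. The part of reserve transcripts in the small heat shock values was not tested.

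The 3 members of each reserve list with the smallest p had log2 fold changes within 2 SE of 0. Among storage proteins these were the 11S globulins 11S2 TRINITY_DN2546_c0_g1 (-0.83 ± 1.64 SE) and TRINITY_DN6508_c0_g1 (-0.64 ± 1.63 SE) and the vicilin-like VICHY TRINITY_DN1097_c0_g1 (-0.90 ± 0.57 SE). Among oil body proteins they were the caleosin-type PXG4 unigenes TRINITY_DN1571_c0_g1 (-0.80 ± 0.44 SE) and TRINITY_DN685_c0_g1 (0.52 ± 0.37 SE) and PXG TRINITY_DN400_c0_g1 (1.64 ± 1.06 SE). Of the late embryogenesis list, SMP1 TRINITY_DN3799_c0_g1 had 2.81 ± 1.42 (SE), EML TRINITY_DN2029_c1_g1 1.41 ± 1.77 (SE) and LEA5 TRINITY_DN4874_c0_g1 -0.31 ± 0.40 (SE). The 10 defensins, antimicrobial peptides, had a median of 0.1 with none at an unadjusted p under 0.05, and DEF TRINITY_DN6173_c1_g1, DEF02 TRINITY_DN50648_c0_g1 and DEF2 TRINITY_DN25877_c0_g1 had -0.33 ± 0.41, 0.36 ± 0.49 and 0.63 ± 0.92 (SE).

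**Figure D5:**
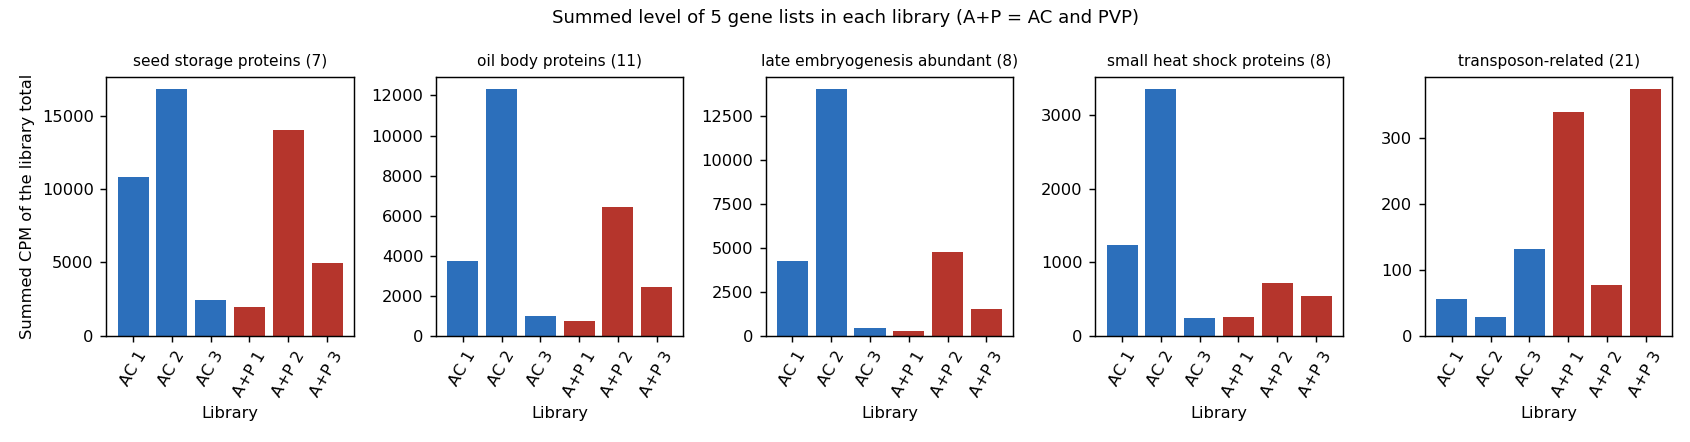
Summed CPM of the library total for 5 gene lists in the 3 AC (blue) and 3 AC and PVP (red, A+P) libraries. The reserve and small heat shock lists peak in AC replicate 2 among these 6 libraries, and the transposon-related list is highest in AC and PVP replicates 1 and 3 (340.0 and 374 CPM).

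Retrotransposon polyproteins are the products of mobile elements. Of 21 unigenes, 1 of which passed the filter only through AC and PVP, 18 had a negative log2 fold change with a median of -2.07, 8 were lower and 1 higher at an unadjusted p under 0.05, and 4 were lower and 1 higher with no overlap. POL3 (TRINITY_DN29500_c0_g1) had 1 count over the AC libraries (0, 0 and 0.0602 CPM) and 2.66, 0.47 and 1.53 CPM in AC and PVP, and DESeq2 called it (adjusted p = 0.01). TF211 (TRINITY_DN17969_c0_g1) stood at 0, 0 and 0.301 CPM against 1.66, 0.268 and 2.16 CPM, and POLR1 (TRINITY_DN17453_c0_g1) at 0, 0.0521 and 0.241 CPM against 1.61, 0.403 and 1.08 CPM. In all 3, AC and PVP replicate 2 lay below replicates 1 and 3, and AC replicate 3 was the highest AC library, above AC and PVP replicate 2 in TF211.

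Summed, the list took 56.2, 28.3 and 131 CPM of the library total in AC and 340.0, 76.9 and 374 CPM in AC and PVP, so AC replicate 3 lay above AC and PVP replicate 2. It took 242, 162 and 352 CPM in CK, within the range of AC and PVP, and 102, 76.5 and 92.9 CPM in PVP. Without AC replicate 3 the median log2 fold change was -4.50. AGO4 (TRINITY_DN22927_c0_g1), the Argonaute protein that silences transposons through DNA methylation in Arabidopsis, stood at 0.0815, 0 and 0.12 CPM in AC and at 4.61, 0.336 and 4.78 CPM in AC and PVP (log2 fold change -5.48 ± 1.25 SE, DESeq2 adjusted p = 0.0016, edgeR adjusted p = 0.7). BAS1B (TRINITY_DN30358_c0_g1), a chloroplast peroxiredoxin, had no count in AC and 4.65, 0.0671 and 5.77 CPM in AC and PVP, and it passed the filter only through AC and PVP, so its difference is a description. Both were high in AC and PVP replicates 1 and 3. The part of the breadth of replicate 1 in these values was not tested.

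Outside the lists and besides AGO4, DESeq2 called 4 further named unigenes, all lower with AC alone. ENT8, a nucleoside transporter (TRINITY_DN4790_c0_g1), stood at 0.204, 0.26 and 0 CPM in AC and at 5.08, 3.02 and 2.61 CPM in AC and PVP (DESeq2 adjusted p = 1.7e-05, edgeR adjusted p = 0.78). PUT4, a polyamine transporter (TRINITY_DN47444_c0_g1), had no count in AC and 0.95, 0.403 and 0.631 CPM in AC and PVP, at least 13.3-fold lower in AC against a floor of 3 counts over the group, a bound that covers counting error only. TSJT1, named after a stem-specific tobacco protein (TRINITY_DN15722_c3_g1), stood at 440, 701 and 718 CPM against 1520, 1780 and 1750 CPM, and CS2 (TRINITY_DN595_c0_g1) at 17.3, 14.7 and 17.3 CPM against 55.2, 27.7 and 55.4 CPM. In all 4 every AC library lay below every AC and PVP library. ENT8 varied widely between replicates of the other groups, with 0, 5.95 and 0 CPM in PVP and 0.179, 3.23 and 0.155 CPM in CK.

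Another 5 named unigenes were singled out by size among those without overlap. The glutathione transferase GSTXC (TRINITY_DN22013_c0_g1) stood at 20.4, 4.58 and 10.5 CPM in AC and at 0, 1.01 and 0 CPM in AC and PVP, and OMT2 (TRINITY_DN336_c0_g1) at 37.8, 14.8 and 17.3 CPM against 3.28, 10.6 and 2.79 CPM. The abscisic acid receptor PYL4 (TRINITY_DN3253_c0_g1) stood at 20.4, 10.1 and 10.7 CPM against 3.85, 4.36 and 0.451 CPM, and the actin-depolymerizing factor ADF2 (TRINITY_DN60751_c0_g1) at 1.06, 1.77 and 2.35 CPM against 0.332, 0.604 and 0 CPM. The mannitol dehydrogenase MTDH (TRINITY_DN39271_c0_g1) was the one lower in AC, at 0, 1.82 and 0 CPM against 14.4, 56.9 and 18.7 CPM. Their edgeR adjusted p ran from 0.71 to 0.78. MTDH stood at 0, 0.135 and 27.2 CPM in CK and GSTXC at 2.71, 9.72 and 0.0625 CPM in PVP. Both thus varied widely between replicates of 1 treatment.

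The unigenes without a name with the smallest p were not DEGs. TRINITY_DN6462_c1_g1 had no count in AC and 0.95, 1.07 and 1.08 CPM in AC and PVP (edgeR adjusted p = 0.072), and TRINITY_DN9163_c0_g2 stood at 0.0407, 0 and 0.602 CPM against 3.75, 2.95 and 3.7 CPM (edgeR adjusted p = 0.12). The means in CK and PVP were 0.00992 and 2.29 CPM for TRINITY_DN6462_c1_g1 and 0.0627 and 2.44 CPM for TRINITY_DN9163_c0_g2. Both thus had higher means in the groups with PVP than in those without. TRINITY_DN7680_c0_g1 stood at 0.0407, 0.0521 and 0.12 CPM against 4.27, 0.47 and 3.25 CPM, with means of 0.893 CPM in CK and 0.0491 CPM in PVP. Higher in AC were TRINITY_DN1523_c0_g1, at 4.24, 2.45 and 5 CPM against 0.76, 0.94 and 1.35 CPM, and TRINITY_DN1350_c0_g1, at 16.2, 12.1 and 17 CPM against 4.23, 2.62 and 7.21 CPM. TRINITY_DN15550_c0_g1 had 23.8 and 28.4 CPM in AC replicates 1 and 2 and no count in AC replicate 3 or in AC and PVP. It also had 0.0389 CPM in CK replicate 3 and 0.0531 CPM in PVP replicate 2, and it met the filter only with the help of AC. With no count in any library of 1 group and a count in the other, 8116 unigenes were missing from AC and 6292 from AC and PVP. A count in 1 library was enough, and AC and PVP replicate 1 held a count in 56644 unigenes, the most of the 6 libraries. The part of that breadth in the 8116 was not tested. Of the unigenes missing from 1 group, 11 had no count in AC and over 0.25 CPM in every AC and PVP library. Another 2 had no count in AC and PVP and over 0.25 CPM in every AC library.

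Whether the addition of PVP acted differently with AC than without it was asked with an interaction term, the effect of PVP without AC (PVP minus CK) subtracted with sign from that with AC, though PVP was at 2.5 g/L with AC and at 2 g/L without. It called 1 of 58247 unigenes (0.00172%), the unnamed TRINITY_DN14585_c0_g1, and 4337 (7.45%) had an unadjusted p under 0.05, 4.51% with a positive and 2.93% with a negative interaction. DESeq2 on all 12 libraries called 104. TRINITY_DN14585_c0_g1 stood at 104, 118 and 120.0 CPM in AC, at 8.21, 66 and 58.3 CPM in AC and PVP, at 90.8, 207 and 205 CPM in CK and at 0.296, 0.319 and 0.375 CPM in PVP. PVP was thus near 0 in all 3 libraries, and AC and PVP lay between PVP and AC with replicate 1 the lowest. The 2 effects differed by 7.61 on the log2 scale (edgeR adjusted p = 0.0083). ERD15 TRINITY_DN17180_c0_g1 came next to the threshold among the DEGs, with an interaction of 7.43 (edgeR adjusted p = 0.062).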

How the data were processed

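RNA of 12 seedling pools (4 groups of 3) was sequenced by the study. According to its methods, the authors trimmed reads with TrimGalore, assembled all libraries de novo with Trinity, mapped with Bowtie, quantified unigenes with RSEM and scaled to TPM. From their values, the deposited files hold estimated counts before that scaling. These estimated counts, which can be split between similar unigenes, were rounded here. Of 130956 unigenes, the 58247 with reads in 3 or more of the 12 libraries were kept.

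The difference AC minus AC and PVP was tested in R 4.3.3 with edgeR 4.0.16 (TMM, quasi-likelihood F-test, all 12 libraries, Benjamini-Hochberg adjustment over 58247 unigenes). DEGs were unigenes beyond a log2 fold change of 1 in either direction at an adjusted p below 0.05. DESeq2 1.42.0 on the 6 libraries was the main alternative. Other normalizations, filters and spread estimates, summing unigenes of 1 symbol, a replicate block and leaving out each library were also run, and the edgeR and DESeq2 steps were tested on simulated data. Folds against a group with no counts used a floor of 3 counts over that group, and such bounds cover counting error only.

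Symbols came from the study's supplementary tables, which list unigenes it had called; their columns of fold changes and p-values were not used. The named unigenes were the DEGs and unigenes sharing their symbols, named unigenes called by DESeq2, the 8 largest named differences in each direction without overlap and with a mean log2 CPM over 0, up to 3 members of each list with the smallest p, some unigenes chosen beforehand (2 C7124 unigenes, 3 peroxidases and PPO), the 3 unnamed unigenes in each direction with the smallest p, and those called for the interaction. The members and lists were chosen with earlier results of these data known.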

Additional observations from a re-analysis of the deposited data

Results flagged for a closer look

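The unnamed unigene TRINITY_DN14585_c0_g1 differed in its response to PVP with and without AC, by 7.61 on the log2 scale (edgeR interaction term, adjusted p = 0.0083). With AC its levels were 104 to 120.0 CPM without PVP and 8.21 to 66 CPM with it, and without AC they were 90.8 to 207 CPM without PVP and 0.296 to 0.375 CPM with it, so it was lower with PVP in all 6 libraries that held PVP. The call was kept in 15 of 19 alternatives. It was lost with edgeR's stricter filter (adjusted p = 0.075) and without AC replicate 3 (0.063), PVP replicate 1 (0.12) or PVP replicate 2 (0.11). The PVP dose differed between the 2 contrasts, and dose and the presence of AC cannot be told apart.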

How the results depend on the processing

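Against 4 DEGs (2 higher and 2 lower with AC alone), the count was 84 (11 and 73) with DESeq2 on both groups, 41 (10 and 31) with DESeq2 on all libraries, 13 (1 and 12) with edgeR on both groups, 1053 (224 and 829) with no filter, 3 (1 and 2) with library sizes only, 2 (0 and 2) with RLE size factors, 2 (1 and 1) with robust estimation, 1 (0 and 1) with edgeR's stricter filter (filterByExpr) and 1 (0 and 1) with unigenes of 1 symbol summed. At an unadjusted p under 0.05, 3699 unigenes passed with RLE, 1538 with filterByExpr and 3674 with symbols summed. Leaving out 1 library gave 2 to 20 DEGs, 0 to 4 higher and 1 to 17 lower. The cause of these shifts was not tested.

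For the interaction, against 1 unigene, the count was 104 with DESeq2, 5 with library sizes only, 1386 with no filter, 0 with filterByExpr (2269 at an unadjusted p under 0.05) and 0 to 12 with 1 library left out (3443 to 3818 at an unadjusted p under 0.05 in the 3 edgeR fits with 0). DESeq2 on both groups had a median of -0.16 over the 55522 unigenes for which it gave a fold change, against which its fold changes should be read. DESeq2 on all libraries had -0.09 over all 58247, and the main fit -0.02.

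The study's methods call the replicates paired for each sample without saying what pairs them, and the labels give only numbers. Whether the numbers pair the libraries could not be settled with 3 libraries in each group. Deviations of same-numbered AC and AC and PVP libraries from their group means correlated at 0.053, -0.114 and -0.041, and not every library correlated best with its own number. With the replicate block 48 DEGs were called (12 and 36), and 98 for the interaction. Of the named unigenes 17 were called with the block and not in the main fit, among them TRINITY_DN10081_c0_g1 LTG15 (edgeR adjusted p = 0.025) and TRINITY_DN22927_c0_g1 AGO4 (edgeR adjusted p = 0.027). Some of the 17 were also called in other alternatives, such as LTG15 and AGO4 by DESeq2 on both groups (adjusted p = 0.00088 and 0.0016).

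Of the values of the named unigenes under all alternatives, 1599 kept direction and side of the threshold and 117 passed it there but not in the main fit. A further 24 no longer passed and 22 changed sign. None of the 15 unigenes that changed sign was a DEG. With symbols summed they were CAHC 0.81, NLTP1 -0.15, DEF 0.04, PXG4 -0.39 and YAB1 0.12. With the replicate block they were 11S2 at 1.16 and 0.58 and PPO at 0.00, and with library sizes only PPO at 0.01. With 1 library left out the ranges were CSPLA -0.61 to 0.27, CSPLB -0.48 to 0.34, EML -0.21 to 2.91, 11S2 -1.83 to 2.39 (TRINITY_DN2546_c0_g1) and -2.20 to 2.93 (TRINITY_DN6508_c0_g1), DEF2 -1.10 to 1.19, DEF02 -0.47 to 0.70, LEA5 -0.70 to 0.13, PPO -0.28 to 0.23 and RBS1 -2.88 to 2.31. Of list medians 467 moved less than the spread and 26 moved more, among them metallothioneins (4.71 with symbols summed), aquaporins (-1.63 without AC replicate 3), oil body proteins (-0.54 without AC replicate 2), laccases (0.62) and other cytochromes P450 (0.11) without AC and PVP replicate 2, and carbon fixation (-1.07 without AC replicate 3 and 0.70 without AC and PVP replicate 3).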
